A study of Drosophila melanogaster with 7 samples.

Results

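The genes described here copy DNA and divide cells in the adult fruit fly midgut. They are 54 genes, chosen by symbol from the 10902 genes of the deposited count table, and all 54 were found in it. By role they are 20 S-phase genes (the MCM helicase and its loader, the GINS complex, the sliding clamp, ribonucleotide reductase), 5 regulators of the step from G1 into S phase, and 29 mitotic genes. Transcript levels came from RNA sequencing of 7 libraries of dissected midgut with the crop, the Malpighian tubules and the hindgut taken off. Every fly carried esgts, a temperature-sensitive Gal4 system driven from the escargot (esg) gene, which is active in intestinal stem cells and the daughters they have just produced. Crosses were kept at 18 °C and adults were moved to 29 °C for 7 days, which turns the driver on. There were 3 control libraries (genotype esgts> w1118). The group labelled Shn-RNAi (esgts> Shn-RNAi, RNA interference against schnurri) had 2, and the group labelled Shn-RNAi puc (esgts> Shn-RNAi,PucE69/+, with 1 copy of the E69 allele of puckered) had 2. The series title calls the 3 groups control, tumor and severe tumor. No group carries PucE69 without the RNAi, and genetic background and transgene cannot be told apart.

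DNA replication starts where the origin recognition complex (ORC) marks the chromosome and the licensing factor Dup (Cdt1) helps load the ring of MCM proteins. CDC45 and GINS turn that ring into a working helicase at the start of S phase, when Cyclin E with Cdk2 is active and E2F drives replication genes. Mitosis follows when Cyclins A and B with Cdk1, released by the String phosphatase (Cdc25), become active; condensin compacts the chromosomes, kinetochores attach them to the spindle, and the checkpoint kinases hold anaphase back until every chromosome is attached. In the fly midgut the stem cells are the main cells that go through mitosis, while young enterocytes copy their DNA without dividing (endoreplication), so S-phase genes are used in both and mitotic genes mainly in stem cells.

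Total counts ran from 11552527 to 18490676 per library, and the members held 0.0201% to 0.0506% of them. The table's columns carry the group and a number but not the deposited sample, and nothing in the labels tells whether 2 libraries of a group are separate animals, pools or repeats. The p-values therefore measure the spread between these libraries, which may be technical. The targeted gene was not lower in the RNAi libraries: shn stood at 42.4 to 47.4 CPM (counts scaled to library size) in control, at 54.1 to 68.6 CPM under the label Shn-RNAi and at 66.5 to 69.7 CPM under the label Shn-RNAi puc. The changes were 0.48 (edgeR adjusted p = 0.091) and 0.63 (edgeR adjusted p = 0.031). The level of shn RNA therefore does not check the labels, and the group names below are the labels' own. All levels are CPM scaled by TMM, and a change is a log2 ratio of groups from edgeR's quasi-likelihood test, called at an adjusted p under 0.05 over all 9076 genes tested. Midgut enterocyte genes summed to between 50001 and 91056 CPM in every library. Of the germline markers, osk stood at 0.645 CPM or lower and nos at 0.215 CPM or lower in all 7 libraries, with the 15 germline genes in the table summing to between 36.8 and 44.6 CPM. Of the 4 germline markers with enough counts to test, piwi rose in Shn-RNAi, from 0.558 CPM on average in control to 2.29 CPM (a change of 1.99, edgeR adjusted p = 0.033), with 1.57 CPM in Shn-RNAi puc (1.44, edgeR adjusted p = 0.075). The changes of grk were 0.50 and 0.76, those of exu 0.26 and -0.05 and those of gus -0.10 and 0.10, none called, and the part of these genes in the results below was not tested.

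The mitotic genes stood higher in both RNAi groups than in control, and the S-phase genes stood higher by a smaller margin. The median log2 change of the 27 tested mitotic members was 0.95 under the label Shn-RNAi and 0.79 under the label Shn-RNAi puc. For the 20 S-phase members it was 0.46 and 0.43, for the 5 G1/S regulators 0.28 and 0.48, and for all 9076 genes 0.03 and 0.02. All 27 tested mitotic members had a change above 0 in both comparisons, against 19 and 17 of the 20 S-phase members and against 52.4% and 52.3% of all genes. A change of at least 0.5 was reached by 24 of the 27 mitotic members in each comparison, by 7 and 8 of the S-phase members, and by 18% and 19.3% of all genes. Of these members, 21 mitotic and 19 S-phase ones reach the count minimum on control libraries alone. The others entered the test only through the RNAi libraries, which favours a change above 0. Both comparisons use the same 3 control libraries.

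Few of these changes passed the test gene by gene. In Shn-RNAi against control, 6 of the 52 tested members rose and 0 fell, beside 6.06% of all tested genes that rose and 3.56% that fell. They were tacc, cal1, Psf1, scra, Top2 and Nuf2, of which only Psf1 is an S-phase gene. In Shn-RNAi puc against control, 5 rose and 0 fell, beside 8.76% of all genes that rose and 6.25% that fell: tacc, cal1, Ndc80, Top2 and scra, all mitotic. None of the 5 G1/S regulators was called in either comparison. Among the members that reach the count minimum on control libraries alone, 5 and 4 of 21 mitotic and 1 and 0 of 19 S-phase members were called higher, beside 5.38% and 8.13% of the 8509 genes that do so; the difference was not tested. The RNAi libraries lay above all control libraries for 33 members in Shn-RNAi (22.1% of all genes) and for 29 in Shn-RNAi puc (28.5%), and below them for 1 member in each (21.2% and 26.4%). At an unadjusted edgeR p under 0.05 there were 16 and 10 of the 27 tested mitotic members and 4 and 3 of the 20 S-phase members. Of all 9076 genes tested, 2432 and 2774 were under that limit. The number of members called higher in Shn-RNAi against control was 1 without control 1 and 2 without control 3. All genes called higher went from 550 to 221 and 278. In Shn-RNAi puc against control it was 1 without control 1 or control 3, and all genes went from 795 to 299 and 392. Both numbers of members also fell without any single RNAi library, including those outside the comparison. Fits with a library left out have fewer residual degrees of freedom. Members and all genes did not always move together there. In Shn-RNAi puc against control, all genes called higher rose in number without either Shn-RNAi library, while members fell. Without control 2, members stayed at 5 and all genes called higher went from 795 to 552. The cause of the lost calls was not tested.

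**Figure D1:**
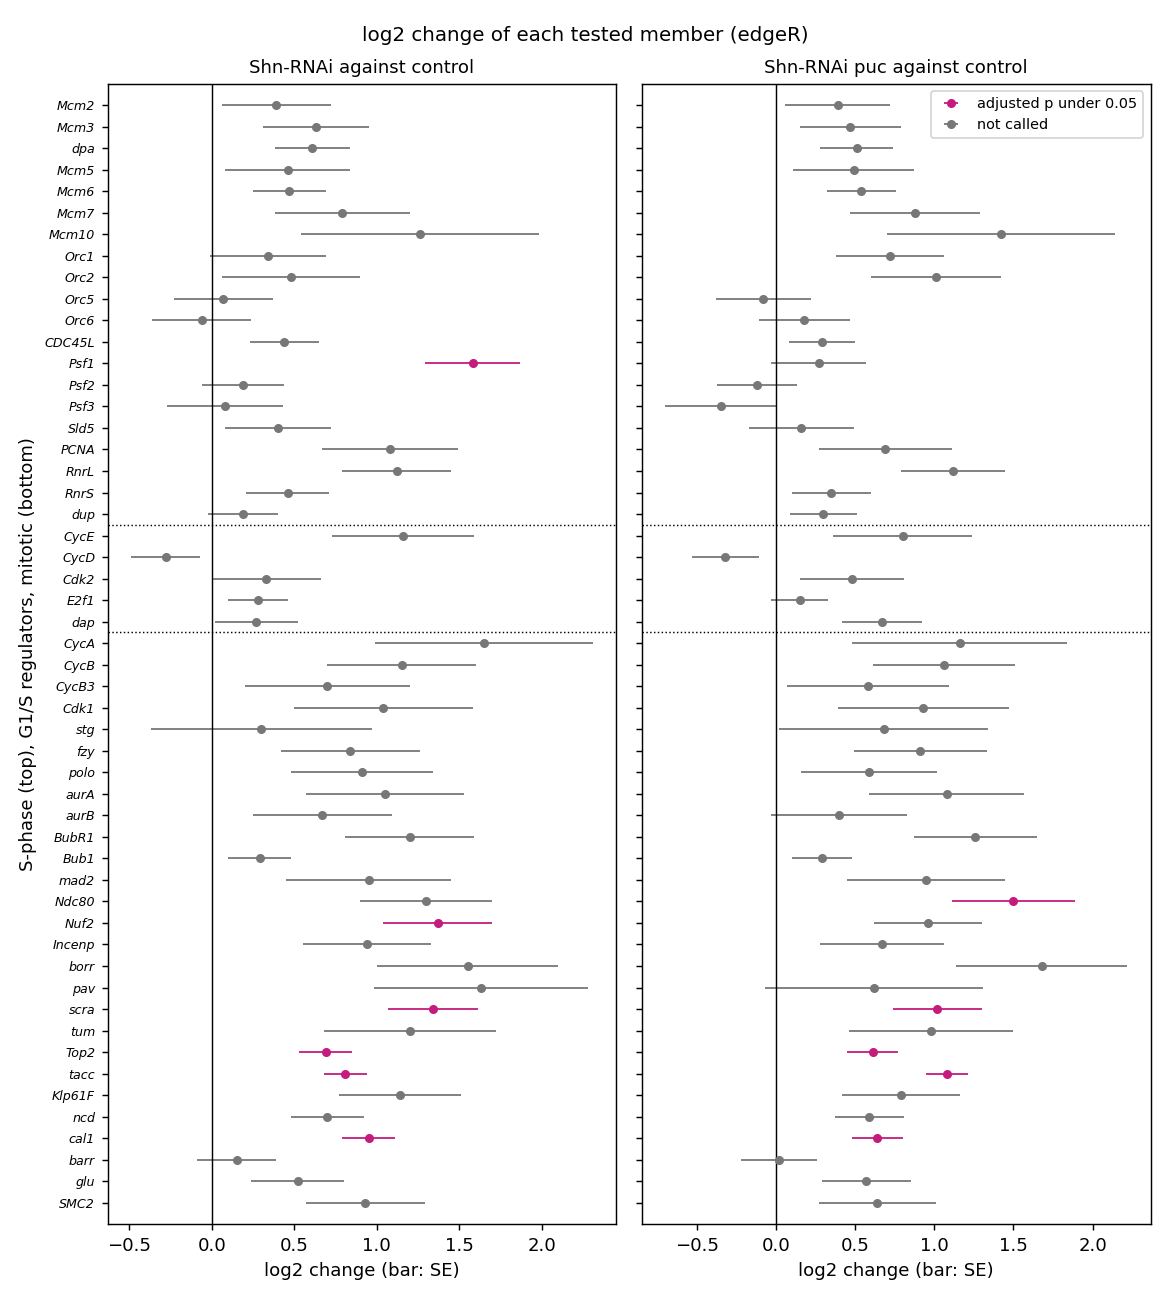
log2 change of each of the 52 tested members, with its SE as a bar, in Shn-RNAi against control (left) and Shn-RNAi puc against control (right); dotted lines part S-phase, G1/S and mitotic genes. The mitotic genes all lie to the right of 0, and the 6 and 5 called members are coloured.

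The level in each library was summarised as the median over members of log2 CPM less the control mean. Over the mitotic members it was 0.14, 0.41 and -0.59 for control, 0.81 and 1.14 for Shn-RNAi, and 0.79 and 0.92 for Shn-RNAi puc. For the S-phase members it was 0.10, 0.26 and -0.36 in control, 0.35 and 0.64 in Shn-RNAi, and 0.35 and 0.53 in Shn-RNAi puc. All 4 RNAi libraries were above all 3 control libraries for both gene groups. The mitotic median less the S-phase median was 0.04, 0.15 and -0.23 in control, 0.46 and 0.50 in Shn-RNAi, and 0.44 and 0.39 in Shn-RNAi puc, so the gap between the gene groups was wider in all 4 RNAi libraries than in any control library. These gaps are a description of 7 libraries, with no test.

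**Figure D2:**
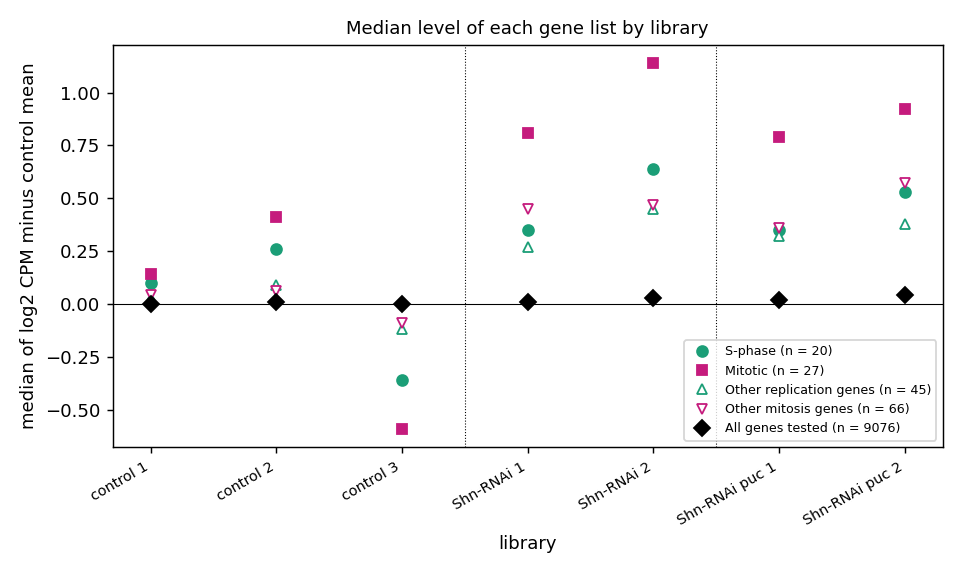
Median over tested members of log2 CPM minus the control mean, 1 point per library, for the S-phase and mitotic members and for the other lists shown. The 4 RNAi libraries lie above the 3 control libraries for S-phase and mitotic genes, and control 3 is the lowest, at -0.36 and -0.59.

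Control 3 stood below the other control libraries for these genes. It held the lowest of the 3 control levels for 42 of the 52 tested members, beside 37.2% of all tested genes. Control 1 was lowest for 6 members (26% of all genes) and control 2 for 4 (36.7%), and control 2 was highest for 35 members. The ratio of the highest to the lowest control level had a median of 2.01 over the mitotic members, 1.58 over the S-phase members and 1.23 over all genes. CycA shows the range: it stood at 1.36, 1.94 and 0.159 CPM in control, the last from 2 counts. Without control 3, the median change of the mitotic members was 0.74 in Shn-RNAi and 0.61 in Shn-RNAi puc, and that of the S-phase members 0.30 and 0.27. The order of the gene groups was the same with and without that library.

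The mitotic genes also had the fewer counts. A count under 10 in at least 1 library was found for 16 of the 29 mitotic members and for 2 of the 20 S-phase members. Spc25, a subunit of the NDC80 kinetochore complex, and cid, the centromeric histone, had too few counts to be tested, with at most 8 and 5 counts in any library. Of the tested members, 7 (Mcm10, CycB3, stg, aurA, mad2, Ndc80 and borr) reached the count minimum only through the RNAi libraries. Among the other 45, which reach it on control libraries alone, the median change was 0.46 and 0.39 for 19 S-phase members and 0.94 and 0.67 for 21 mitotic members.

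**Figure D3:**
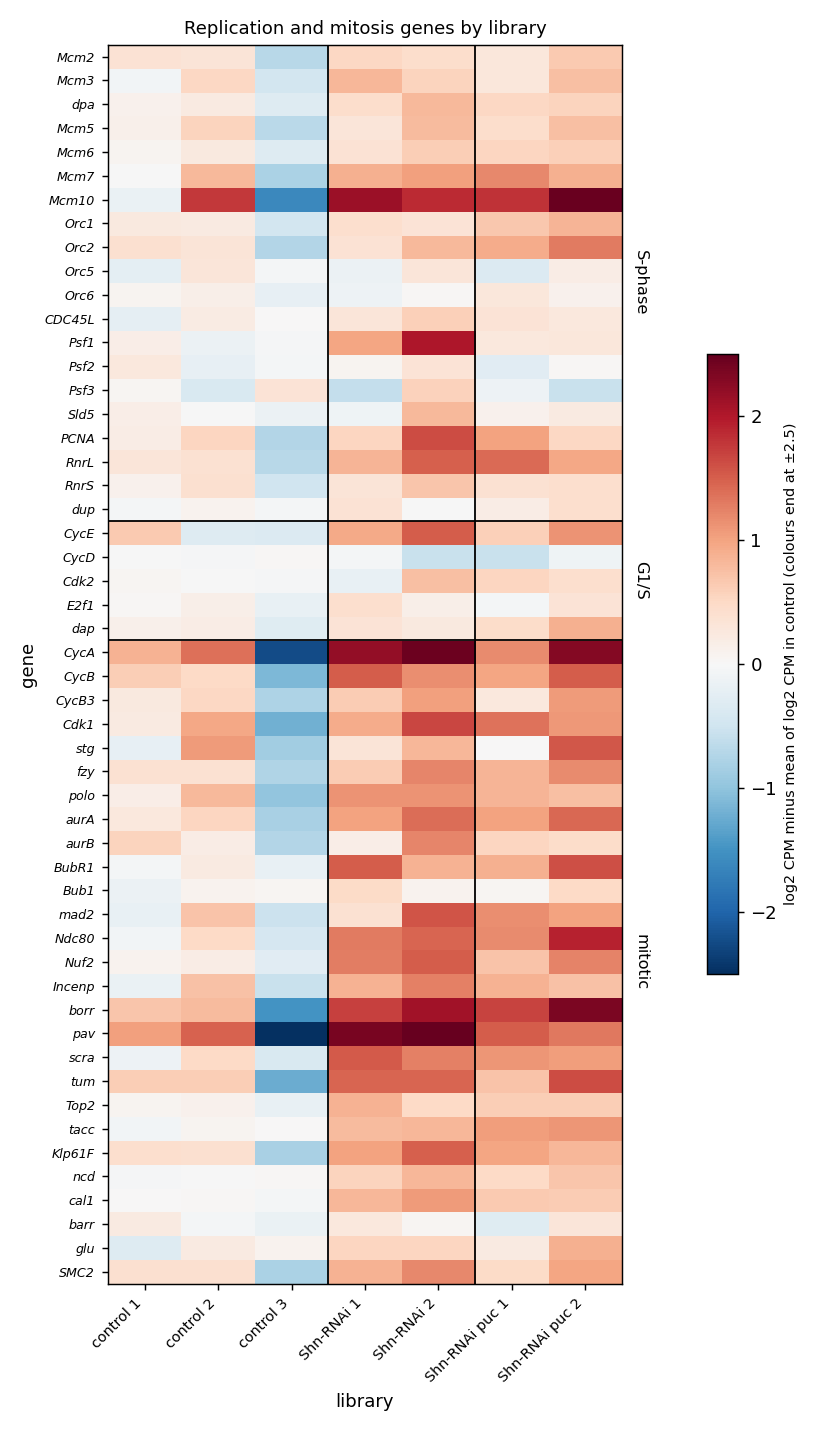
log2 CPM of each of the 52 tested members in each of the 7 libraries, relative to the mean of log2 CPM in control. Colours end at 2.5 in either direction. The mitotic rows are mostly high in the 4 RNAi libraries and low in control 3, where CycA stood at 0.159 CPM.

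The 6 subunits of the MCM helicase, which unwinds the DNA at the fork, had small and similar changes. Their changes ran from 0.39 (Mcm2) to 0.79 (Mcm7) in Shn-RNAi and from 0.39 (Mcm2) to 0.88 (Mcm7) in Shn-RNAi puc, and none was called. Mcm6 stood at 4.58, 5.15 and 3.5 CPM in control, at 5.6 and 6.68 CPM in Shn-RNAi and at 6.3 and 6.57 CPM in Shn-RNAi puc. The RNAi libraries did not overlap control, and the changes were 0.47 (SE 0.22, edgeR adjusted p = 0.23) and 0.54 (SE 0.22, edgeR adjusted p = 0.15). The dpa gene (Mcm4) had changes of 0.61 and 0.51, Mcm3 of 0.63 and 0.47, and Mcm5 of 0.46 and 0.49. Mcm7 is uncertain, since 81.7% of its exonic bases are shared with the antisense gene asRNA:CR45871 and whether counting used strand is not given in the sources here. Mcm10, which helps activate the helicase, had the widest S-phase changes apart from that of Psf1 in Shn-RNAi, at 1.26 and 1.42, from only 3, 15 and 1 counts in control; neither was called (edgeR adjusted p = 0.32 and 0.23).

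The origin recognition complex split by subunit, with no call. Orc1 and Orc2 stood higher in Shn-RNAi puc: Orc2 was at 1.22, 1.16 and 0.557 CPM in control, at 1.18 and 1.61 CPM in Shn-RNAi, and at 1.75 and 2.26 CPM in Shn-RNAi puc. The Shn-RNAi puc libraries lay above all others for Orc2, with a change against control of 1.01 (SE 0.41, edgeR adjusted p = 0.14). Orc5 had changes of 0.07 and -0.08 and Orc6 of -0.06 and 0.18, each smaller than its SE of 0.29 to 0.30. The licensing factor dup stood at 4.23, 4.65 and 4.22 CPM in control, at 5.6 and 4.33 CPM in Shn-RNAi and at 4.94 and 5.86 CPM in Shn-RNAi puc, with changes of 0.19 and 0.30.

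Psf1, a subunit of GINS, was the exception among the S-phase genes. It stood at 5.66, 4.54 and 4.94 CPM in control, at 9.97 and 20.3 CPM in Shn-RNAi, and at 6.04 and 6.08 CPM in Shn-RNAi puc. The Shn-RNAi libraries lay above the others and far from each other, while the Shn-RNAi puc libraries lay just above control. The change was 1.58 (SE 0.29, edgeR adjusted p = 0.016) in Shn-RNAi, while it was 0.27 (SE 0.30, edgeR adjusted p = 0.61) in Shn-RNAi puc, and the difference between those groups was -1.31 (SE 0.32, edgeR adjusted p = 0.31). Without the higher library, Shn-RNAi 2, the change in Shn-RNAi was 0.99, and the call was lost without control 3 (edgeR adjusted p = 0.052) or either Shn-RNAi puc library (0.053). Psf1 lies on chromosome 3L at 1246986 to 1247677 (BDGP6.54) and shares no exonic base with another gene. The other GINS subunits did not follow: Psf2 had changes of 0.19 and -0.12, Psf3 of 0.08 and -0.35 and Sld5 of 0.40 and 0.16, none called. Psf3 shares 34.9% of its exonic bases with CG17841. CDC45L, the fly Cdc45, stood at 4.44, 5.98 and 5.18 CPM in control, at 6.33 and 7.85 CPM in Shn-RNAi and at 6.5 and 6.22 CPM in Shn-RNAi puc. No RNAi library fell within the control range, and the changes of 0.44 and 0.29 were not called.

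The clamp and the large subunit of ribonucleotide reductase, which makes deoxyribonucleotides, had larger changes that missed the threshold. PCNA stood at 6.3, 8.08 and 3.34 CPM in control, at 8.07 and 17.2 CPM in Shn-RNAi and at 11.2 and 7.98 CPM in Shn-RNAi puc. Each RNAi group had a library just below the highest control library, and the changes were 1.08 (SE 0.41, edgeR adjusted p = 0.14) and 0.69 (SE 0.42, edgeR adjusted p = 0.31). The change of PCNA in Shn-RNAi was 0.44 without Shn-RNAi 2 and ran up to 1.54 with another library left out. RnrL, singled out after its values were seen, stood at 7.45, 7.91 and 3.74 CPM in control, at 10.9 and 17.1 CPM in Shn-RNAi and at 16.1 and 11.8 CPM in Shn-RNAi puc. Its RNAi libraries all lay above control, with a change of 1.12 (SE 0.33) in each comparison (edgeR adjusted p = 0.073 and 0.059). The small subunit RnrS, at 24.1, 29.3 and 15.8 CPM in control, had changes of 0.46 and 0.35. Per kilobase of median transcript length, RnrS had the highest level of the S-phase genes in control, 14.5 CPM per kb, against 2.47 CPM per kb for RnrL.

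Among the G1/S regulators, CycE, the cyclin that with Cdk2 starts S phase, stood at 1.43, 0.719 and 0.717 CPM in control, at 1.74 and 2.57 CPM in Shn-RNAi and at 1.36 and 1.98 CPM in Shn-RNAi puc. The Shn-RNAi libraries lay above control and 1 Shn-RNAi puc library lay below control 1. The changes were 1.16 (SE 0.43, edgeR adjusted p = 0.13) and 0.80 (SE 0.44, edgeR adjusted p = 0.26). E2f1, the activating E2F, stood at 43.5, 47 and 37.5 CPM in control, at 56.9 and 46.9 CPM in Shn-RNAi and at 40.9 and 54 CPM in Shn-RNAi puc, and its groups overlapped. Its changes were 0.28 (SE 0.18, edgeR adjusted p = 0.37) and 0.15 (SE 0.18, edgeR adjusted p = 0.64). The Cyclin E-Cdk2 inhibitor dap had changes of 0.27 and 0.67 and Cdk2 of 0.33 and 0.48, and 43.9% of the exonic bases of Cdk2 are shared with CG17267. CycD, a growth and G1 cyclin, was the member with the clearest lower level, at 11.2, 11.1 and 11.5 CPM in control, at 10.9 and 7.7 CPM in Shn-RNAi and at 7.67 and 10.4 CPM in Shn-RNAi puc. All 4 RNAi libraries lay below control, but the changes of -0.28 (SE 0.21) and -0.32 (SE 0.21) were not called (edgeR adjusted p = 0.45 and 0.35).

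The mitotic cyclins and their kinase stood higher in most RNAi libraries, from very few counts, and none was called. CycB stood at 1.86, 1.72 and 0.557 CPM in control, at 3.47 and 2.72 CPM in Shn-RNAi and at 2.4 and 3.46 CPM in Shn-RNAi puc. The RNAi libraries lay above control, with changes of 1.15 (SE 0.45, edgeR adjusted p = 0.15) and 1.06 (SE 0.45, edgeR adjusted p = 0.16). Cdk1 stood at 0.86, 1.44 and 0.319 CPM in control, at 1.4 and 2.35 CPM in Shn-RNAi and at 1.88 and 1.55 CPM in Shn-RNAi puc. Its Shn-RNAi group overlapped control, and the changes were 1.04 (SE 0.54, edgeR adjusted p = 0.27) and 0.93 (SE 0.54, edgeR adjusted p = 0.3). CycA had changes of 1.65 and 1.16 and CycB3 of 0.70 and 0.58. The phosphatase stg (String), which activates Cdk1, stood at 0.501, 1.22 and 0.319 CPM in control, at 0.729 and 1.03 CPM in Shn-RNAi and at 0.585 and 1.7 CPM in Shn-RNAi puc. All 3 groups overlapped for stg, with changes of 0.30 (SE 0.67, edgeR adjusted p = 0.82) and 0.68 (SE 0.66, edgeR adjusted p = 0.55). The anaphase activator fzy (Cdc20) had changes of 0.84 and 0.91.

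The mitotic kinases and the checkpoint followed the same direction. The changes were 0.91 and 0.59 for polo, 1.05 and 1.08 for aurA (the centrosomal Aurora kinase) and 0.67 and 0.40 for aurB (the chromosomal one), none called. BubR1, a checkpoint protein at the kinetochore, stood at 0.788, 0.941 and 0.717 CPM in control, at 2.3 and 1.47 CPM in Shn-RNAi and at 1.49 and 2.47 CPM in Shn-RNAi puc. Its groups did not overlap control, with changes of 1.20 (SE 0.39, edgeR adjusted p = 0.091) and 1.26 (SE 0.39, edgeR adjusted p = 0.066). Bub1 stood at 3.26 CPM per kb of transcript in control against 0.176 CPM per kb for BubR1, and its changes were 0.29 in each comparison. For mad2 they were 0.95 in each.

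At the outer kinetochore, Nuf2 and Ndc80, partners in the NDC80 complex that binds microtubules, each passed the test in a different comparison. Nuf2 stood at 0.931, 0.996 and 0.717 CPM in control, at 2.13 and 2.49 CPM in Shn-RNAi and at 1.43 and 2.05 CPM in Shn-RNAi puc. Ndc80 stood at 0.716, 1.05 and 0.557 CPM in control, at 1.85 and 2.05 CPM in Shn-RNAi and at 1.69 and 2.83 CPM in Shn-RNAi puc. For both genes all 4 RNAi libraries lay above control. Nuf2 had a change of 1.37 (SE 0.33, edgeR adjusted p = 0.042) in Shn-RNAi and of 0.96 (SE 0.34, edgeR adjusted p = 0.099) in Shn-RNAi puc. Ndc80 had a change of 1.30 (SE 0.40, edgeR adjusted p = 0.079) in Shn-RNAi, while it was 1.50 (SE 0.39, edgeR adjusted p = 0.04) in Shn-RNAi puc. The difference between the RNAi groups was not called for either, at -0.41 (SE 0.36) and 0.21 (SE 0.41). These 2 calls rest on 7 to 40 counts per library: that of Nuf2 was lost without any single library (edgeR adjusted p = 0.071 to 0.13) and in DESeq2 (0.086), and that of Ndc80 without any library but control 2 (edgeR adjusted p = 0.058 to 0.33) and in DESeq2 (0.07). Nuf2 lies on 2L at 7064431 to 7065837 and Ndc80 on X at 13609671 to 13612062.

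At the centromere, cal1, the factor that places the centromeric histone Cid, rose in both comparisons. It stood at 6.52, 6.58 and 6.21 CPM in control, at 11.4 and 13.5 CPM in Shn-RNAi and at 10.1 and 9.96 CPM in Shn-RNAi puc. The control libraries lay close together and well below the others. The change was 0.95 (SE 0.16, edgeR adjusted p = 0.011) in Shn-RNAi, while it was 0.64 (SE 0.16, edgeR adjusted p = 0.034) in Shn-RNAi puc. In Shn-RNAi the call was lost only without control 1 (edgeR adjusted p = 0.052); in Shn-RNAi puc it was lost without any control library or either Shn-RNAi puc library (edgeR adjusted p = 0.087 to 0.16) and in DESeq2 (0.084). The gene lies on 3R at 17088280 to 17091938, and 11.3% of its exonic bases overlap cher (filamin) on the opposite strand. Reads of cher could count toward cal1: cher stood at 36.1 to 57 CPM in control and at 210 to 299 CPM in the RNAi libraries, with changes of 2.64 and 2.42, and its part in the change of cal1 was not tested.

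The genes of the chromosomal passenger complex and of cytokinesis had some of the widest changes. The scra gene encodes anillin, which organises the contractile ring. It stood at 2.65, 4.09 and 2.23 CPM in control, at 8.41 and 6.9 CPM in Shn-RNAi and at 6.24 and 6 CPM in Shn-RNAi puc. All 4 RNAi libraries lay above control, with a change of 1.34 (SE 0.27, edgeR adjusted p = 0.023) in Shn-RNAi, while it was 1.02 (SE 0.28, edgeR adjusted p = 0.046) in Shn-RNAi puc. In Shn-RNAi the call of scra was lost without any library but control 2 (edgeR adjusted p = 0.056 to 0.085), and in Shn-RNAi puc without control 1, control 3, Shn-RNAi 1 or either Shn-RNAi puc library (edgeR adjusted p = 0.051 to 0.21). The gene lies on 2R at 7590119 to 7595242. The centralspindlin pair had changes of 1.63 and 0.62 (pav, a kinesin) and 1.20 and 0.98 (tum, a RacGAP), none called. Of the passenger genes, borr (Borealin) stood at 0.716, 0.775 and 0.159 CPM in control, at 1.46 and 1.91 CPM in Shn-RNAi and at 1.43 and 2.26 CPM in Shn-RNAi puc. Both RNAi groups lay above control, and its changes of 1.55 (SE 0.55) and 1.68 (SE 0.54) had edgeR adjusted p = 0.12 and 0.076. Incenp had changes of 0.94 and 0.67.

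Of all members, tacc had the smallest p in both comparisons. It encodes a protein that stabilises microtubules at the centrosome. It stood at 41.2, 45.2 and 43.6 CPM in control, at 74.8 and 76.8 CPM in Shn-RNAi, and at 89.4 and 93.3 CPM in Shn-RNAi puc. The 3 groups did not overlap and each was tight. The group means were 43.3 ± 2.02 (SD, n = 3), 75.8 ± 1.43 (SD, n = 2) and 91.4 ± 2.74 CPM (SD, n = 2). The change was 0.81 (SE 0.13, edgeR adjusted p = 0.0099) in Shn-RNAi, while it was 1.08 (SE 0.13, edgeR adjusted p = 0.0029) in Shn-RNAi puc. The call in Shn-RNAi puc was kept without each of the 7 libraries in turn, and that in Shn-RNAi was lost only without control 1 (edgeR adjusted p = 0.069). Between the RNAi groups tacc differed by 0.27 (SE 0.14, edgeR adjusted p = 0.83). It lies on 3R at 4733654 to 4749056, with 4.5% of its exonic bases shared with an antisense gene, and at 9.43 CPM per kb in control it had the highest level per length of the mitotic members. The spindle motors Klp61F (kinesin-5) and ncd (kinesin-14) had changes of 1.14 and 0.79 and of 0.70 and 0.59. RNAi and control libraries overlapped for neither, and neither was called. Klp61F shares 11% of its exonic bases with galene, and ncd shares 15.3% with CG7789 and ca. The level of ca was 24 CPM on average in control, with changes of 0.23 and 0.16. The part of these neighbours in the changes was not tested.

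Of the chromosome structure genes, Top2, the topoisomerase that untangles sister DNA, stood at 16.6, 16.9 and 13.9 CPM in control, at 28.7 and 22.3 CPM in Shn-RNAi and at 24 and 24.2 CPM in Shn-RNAi puc. No RNAi library overlapped control, and the change was 0.69 (SE 0.16, edgeR adjusted p = 0.035) in Shn-RNAi, while it was 0.61 (SE 0.16, edgeR adjusted p = 0.041) in Shn-RNAi puc. With the trend of change on transcript length taken out, it was 0.38 in each. In Shn-RNAi the call of Top2 was lost without any library but Shn-RNAi 2 (edgeR adjusted p = 0.072 to 0.12), and in Shn-RNAi puc without any control or Shn-RNAi puc library (edgeR adjusted p = 0.088 to 0.2). It lies on 2L at 19447365 to 19453490. The condensin genes had changes of 0.93 and 0.64 (SMC2), 0.52 and 0.57 (glu, the SMC4 subunit) and 0.15 and 0.02 (barr), and none was called.

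**Figure D4:**
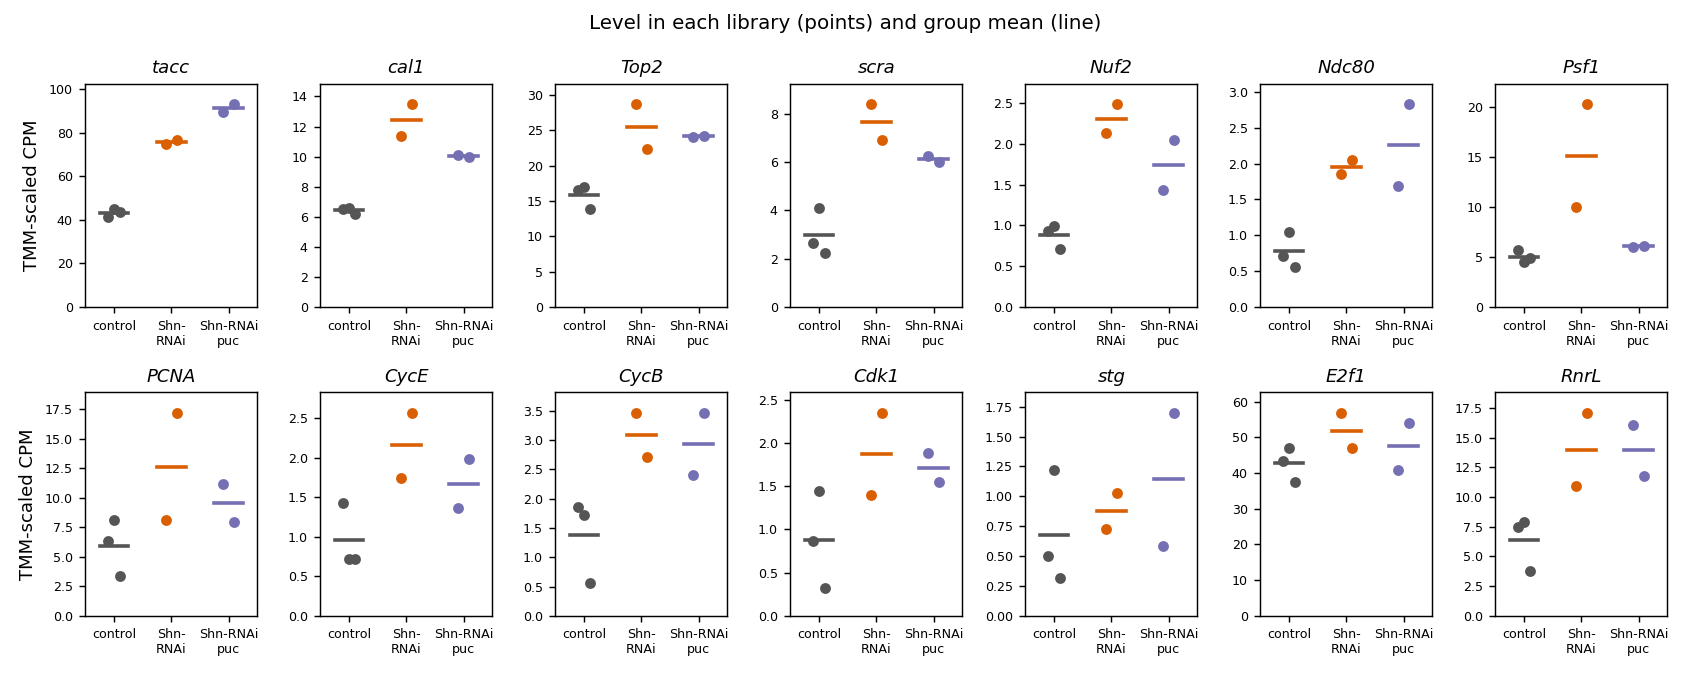
Level in each library (points, CPM) and group mean (line) for the 7 called members, the 6 members described in any case, and RnrL; each axis starts at 0. For tacc, cal1, Top2, scra, Nuf2 and Ndc80 all 4 RNAi libraries lie above the 3 control libraries, and for Psf1 Shn-RNAi 2 stands alone at 20.3 CPM.

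Adding the PucE69 allele to the RNAi was followed by no call among the members. In Shn-RNAi puc against Shn-RNAi, 0 of 52 members were called by edgeR, DESeq2 or limma-voom, beside 0.143% of all genes called by edgeR in either direction. An unadjusted edgeR p under 0.05 was found for 1 of the 52, beside 579 of all 9076 genes. The median change was -0.11 for mitotic members, -0.05 for S-phase members and -0.01 for all genes. The widest was that of Psf1, followed by pav at -1.01 (SE 0.71, edgeR adjusted p = 0.88). The missing calls do not show that the groups were equal, given SEs of 0.14 to 0.73.

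The further genes of both pathways came from lists that, like the members, were chosen with earlier results of these data known. They had smaller median changes in the same direction as the mitotic and S-phase members. The genes named from these lists are among those with the smallest p. The 45 other replication genes had median changes of 0.40 and 0.36. Of them, 1 rose in each comparison and 0 fell, beside 6.06% and 8.76% of all genes that rose. That gene was RPA2, a subunit of the single-strand binding protein, which ran from 3.42 to 5.44 CPM in control, 7.17 to 9.91 CPM in Shn-RNAi and 8.12 to 8.83 CPM in Shn-RNAi puc, with changes of 1.01 (edgeR adjusted p = 0.044) and 1.00 (edgeR adjusted p = 0.035). All 4 RNAi libraries lay above control. The 66 other mitosis genes tested had medians of 0.48 and 0.52. These lay closer to the medians of the other replication genes than the mitotic members' medians (0.95 and 0.79) lay to the S-phase medians (0.46 and 0.43). Of the 66 genes, 7 and 8 rose and 0 fell, beside 6.06% and 8.76% of all genes that rose. The widest of these was cnn (centrosomin, a centrosome scaffold), with 2.47 to 6.92 CPM in control, 24 to 25.7 CPM in Shn-RNAi and 18.8 to 20.6 CPM in Shn-RNAi puc. Its changes were 2.34 (SE 0.33, edgeR adjusted p = 0.006) and 2.00 (SE 0.33, edgeR adjusted p = 0.0083), larger than that of any member. The microtubule end protein Eb1 had changes of 0.76 and 0.79 (edgeR adjusted p = 0.037 and 0.024), and fzr, the Cdh1 homologue that switches cells to endoreplication, of 0.58 and 0.72 (edgeR adjusted p = 0.042 and 0.015).

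Markers of cell types also differed between the groups. The 12 progenitor markers summed to at most 190 CPM in control, to 287 and 243 CPM in Shn-RNAi and to 204 and 249 CPM in Shn-RNAi puc. Of the 12, 2 (peb and hdc) rose in Shn-RNAi and 0 in Shn-RNAi puc, beside 6.06% and 8.76% of all genes. The progenitor genes esg and Dl were not called, with changes of 0.07 and 0.11 and of 0.59 and 0.37. The 11 visceral muscle markers summed to between 3416 and 3618 CPM in control and between 1730 and 2326 CPM in the RNAi libraries. Of the 11, 4 and 7 were called lower, beside 3.56% and 6.25% of all genes. Of the 8 enterocyte markers tested, 2 and 3 were called higher and 0 and 1 lower. The 9 enteroendocrine markers had 1 and 1 called higher and 0 and 1 lower. Of 3 hemocyte markers tested, 1 was called higher, in Shn-RNAi puc only. These counts stand beside 6.06% and 8.76% of all genes called higher and 3.56% and 6.25% called lower. No fat body, trachea or Malpighian tubule marker was called. The part of any of these lists in the members' changes was not tested. In bulk tissue, more cells of a type and more RNA per cell cannot be told apart.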

How the data were processed

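The authors deposited whole-number counts per gene for 7 midgut libraries, with unequal totals. Salmon 1.0.0, DESeq2 and BDGP6 appear in the submitters' processing notes, without the role of each. Columns were matched to groups by name. In edgeR 4.0.16 (R 4.3.3), filterByExpr by group left 9076 of 10902 genes, libraries were scaled with TMM, and a quasi-likelihood model of all 7 libraries (4 residual degrees of freedom, common biological coefficient of variation 21.6%) gave 3 two-sided contrasts with Benjamini-Hochberg adjustment over the 9076. The SE is the change divided by the square root of F, and is approximate. Medians per library use log2 CPM with a prior count of 2. The fit was tested on simulated data. Alternatives were RLE scaling, no low-count filter, a transcript-length trend taken out, the 2 groups compared only, DESeq2 1.42.0, limma-voom (limma 3.58.1) and each library left out; a block on the column number, and values for only those members that pass the filter on control libraries, were chosen after seeing the data. Symbols were matched to Ensembl 115 (BDGP6.54), 99.82% found, and positions are from it. Members and lists were chosen with earlier results of these data known. The text gives library values for every called member and for PCNA, CycE, CycB, Cdk1, stg and E2f1; others described in full were picked after their values were seen. Counting error alone limits members at a few counts. A result for 1 other mitosis gene is not reported here.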

Additional observations from a re-analysis of the deposited data

How the results depend on the processing

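The count of members called higher in Shn-RNAi against control was 6, within 1.5 times of that under the 6 other settings that keep all libraries and use no block (4 to 6), and 1 to 4 when a library was left out. In Shn-RNAi puc against control it was 5, with 7 in the fit of 2 groups only, 2 under no low-count filter and 3 in DESeq2. It was 1 to 5 when a control library was left out. With all libraries kept and no block, the calls lost in Shn-RNAi against control were Nuf2 (adjusted p = 0.064 with no low-count filter, 0.053 with 2 groups only, 0.086 in DESeq2) and Top2 (0.057 in the length-trend fit, 0.061 with 2 groups only). Those lost in Shn-RNAi puc against control were Ndc80 (0.058 with no low-count filter, 0.07 in DESeq2), scra (0.06 with no low-count filter), Top2 (0.053 with no low-count filter, 0.057 in DESeq2) and cal1 (0.13 in the length-trend fit, 0.084 in DESeq2). No member was called lower in either comparison under any setting. The median change of the mitotic members in Shn-RNAi ran from 0.74 to 1.32 with a library left out (1.32 without control 2, 0.74 without control 3). Over all genes, the fit of 2 groups only called 1194 higher and 1012 lower in Shn-RNAi puc against control; in Shn-RNAi against control the length-trend fit called 491 lower and DESeq2 595. In Shn-RNAi puc against Shn-RNAi, DESeq2 called 38 higher and 46 lower and the length-trend fit 21 and 11. Leaving out libraries gave 139 higher and 33 lower in Shn-RNAi puc against control without Shn-RNAi puc 2, and 221 and 64 in Shn-RNAi against control without control 1.

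Changes of sign occurred among members that were not called in that comparison. With the length trend taken out, Orc6 was 0.1 in Shn-RNAi, Psf2 was 0.15, E2f1 -0.06 and barr -0.13 in Shn-RNAi puc, and Top2 was 0.01 between the RNAi groups. In limma-voom Psf3 was -0.02 in Shn-RNAi; barr in Shn-RNAi puc was -0.0048 with RLE scaling and -0.01 in DESeq2 and in limma-voom. With a library left out, Shn-RNAi against control gave -0.16 to 0.28 for Orc5, -0.14 to 0.02 for Orc6, -0.61 to 0.55 for Psf3, -0.11 to 0.81 for Sld5, -0.01 to 0.36 for dup and -0.19 to 0.74 for Cdk2. Shn-RNAi puc against control gave -0.36 to 0.17 for Orc5, -0.29 to 0.03 for Psf2, -0.06 to 0.34 for E2f1, -0.24 to 1.41 for stg and -0.3 to 0.28 for barr. Shn-RNAi puc against Shn-RNAi gave -0.21 to 0.53 for Ndc80, -0.25 to 0.11 for Top2, -0.84 to 0.25 for PCNA, -0.36 to 0.16 for CycB, -0.45 to 0.29 for Cdk1, -0.57 to 0.95 for stg and -0.35 to 0.05 for E2f1. In Shn-RNAi puc against Shn-RNAi, signs were followed only for the members called against control and for PCNA, CycE, CycB, Cdk1, stg and E2f1. The cause of these changes of sign was not tested. The number in the column names was tried as a replicate block, chosen after seeing the data; it leaves 2 residual degrees of freedom, and control 3, alone in its block, adds nothing. The replicate block left 0 members called higher in Shn-RNAi against control and 1 (tacc, adjusted p = 0.028) in Shn-RNAi puc against control, with mitotic medians of 0.74 and 0.61 and S-phase medians of 0.28 in both; all genes called were 230 higher and 91 lower, and 309 and 159, and barr was -0.06 in Shn-RNAi puc. Nothing in the labels ties equal numbers together, so the numbers were not taken as pairs. Deviations from the group means of libraries with the same number correlated between -0.13 and 0.20 across genes. For libraries with different numbers the correlations ran from -0.26 to 0.26. In a group of 2 libraries the deviations mirror each other, so these correlations cannot decide whether equal numbers are pairs.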
